A study of Mus musculus with 8 samples.

Results

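The genes described here are the mouse zinc finger genes named Zfp with a number that were expressed in embryonic stem cells (ESC), in neural progenitor cells (NPC) or in both. A gene entered when its exon level, averaged over both cell types in the authors' deposited table, was at least 5 RPKM (reads scaled to exon length and to library size). Zfp42 and Zfp57 were left out by the rule. This gave 244 members of 320 Zfp-numbered genes, among 20512 named genes in the table. The members were chosen on the same exon levels that are given below, so exon levels and exon fold changes are a description, and the intron values are the second readout. Just inside the minimum stood Zfp454 with a mean of 5.01 RPKM, Zfp956 with 5.04 and Zfp30 with 5.15. Just outside stood Zfp964 with 4.995, Zfp316 with 4.955 and Zfp619 with 4.93.

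The ESC line F1-21.6 comes from a cross of the strains 129Sv and Cast/EiJ and was grown on inactivated mouse embryonic fibroblast feeders with serum and leukaemia inhibitory factor. The NPC came from 1 clone differentiated from that line, so its values are those of 1 clone. The 2 biological replicates of a cell type were each made into 2 technical libraries, from total RNA depleted of ribosomal RNA. Exon levels came as 1 pooled value for ESC and 1 for NPC beside the test the authors ran, with no value per replicate; intron levels were deposited per biological replicate.

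C2H2 zinc finger proteins bind DNA through short repeated modules, each folded around a zinc ion by a pair of cysteines and a pair of histidines. Many mouse members also carry a KRAB box, which recruits the corepressor Trim28 and through it the histone methyltransferase Setdb1, and many KRAB members silence retroelements or imprinted regions in early embryonic cells. The family grew by tandem duplication, and its genes stand in clusters on a few chromosomes.

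The module that names the family is shown in 3 members that were lower in NPC and are described below. These are codons of 1 finger each, from the longest GENCODE vM21 coding transcript, with the codons of the cysteines and histidines in capitals.
Zfp819, residues 414 to 439: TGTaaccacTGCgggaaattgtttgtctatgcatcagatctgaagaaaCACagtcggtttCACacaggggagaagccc
Zfp568, residues 421 to 446: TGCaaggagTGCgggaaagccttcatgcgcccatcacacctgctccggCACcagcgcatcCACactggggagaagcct
Zfp809, residues 271 to 296: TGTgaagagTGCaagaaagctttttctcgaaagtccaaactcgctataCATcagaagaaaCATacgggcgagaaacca
The bases between the capitals differ from gene to gene, and the capitals keep their spacing. The stretch by which a KRAB box was recognised is shown for the pair of these genes that held it.
Zfp568, residues 58 to 67: ttgtaccgagatgtgatgctggagacctac
Zfp809, residues 28 to 37: ctgtacagggatgtgatgctggaaacctac

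More members were called higher than lower in NPC. A small group fell to near 0, though falls of 8-fold or more were no more frequent than among all genes. At an adjusted p of 0.05 in the authors' deposited table, 102 members were higher in NPC and 60 lower, and 82 were not called. Among all 9840 genes that met the same minimum of 5 RPKM, 33.0% were called higher and 34.5% lower. The members' median log2 fold change was 0.40, beside -0.04 over those 9840 genes. At 2-fold or more, 81 members were higher and 39 lower, beside 26.5% and 25.9% of all genes. At 8-fold or more, 13 members were higher, where 8.62% of all genes were, and 12 lower, where 6.49% were. Most members were expressed in both cell types: 181 reached 5 RPKM in each, of which 60 were called higher and 44 lower. The shares were 25.9% higher and 34.2% lower among the 7635 genes of the table at that level in each cell type. The median of the 181 was 0.16, beside -0.15 for those 7635 genes, so the median of 0.40 rests in part on members that met the minimum through NPC alone. There were 45 of these, and 18 met it through ESC alone. Of the 13 members at least 8-fold higher, 12 met the minimum through NPC alone. Of the 12 at least 8-fold lower, 10 met it through ESC alone. Among the 181, only 1 was 8-fold higher and 2 were 8-fold lower, so the extremes rest largely on how members entered. In bulk RNA, fewer cells of a type and less RNA per cell cannot be told apart.

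**Figure D1:**
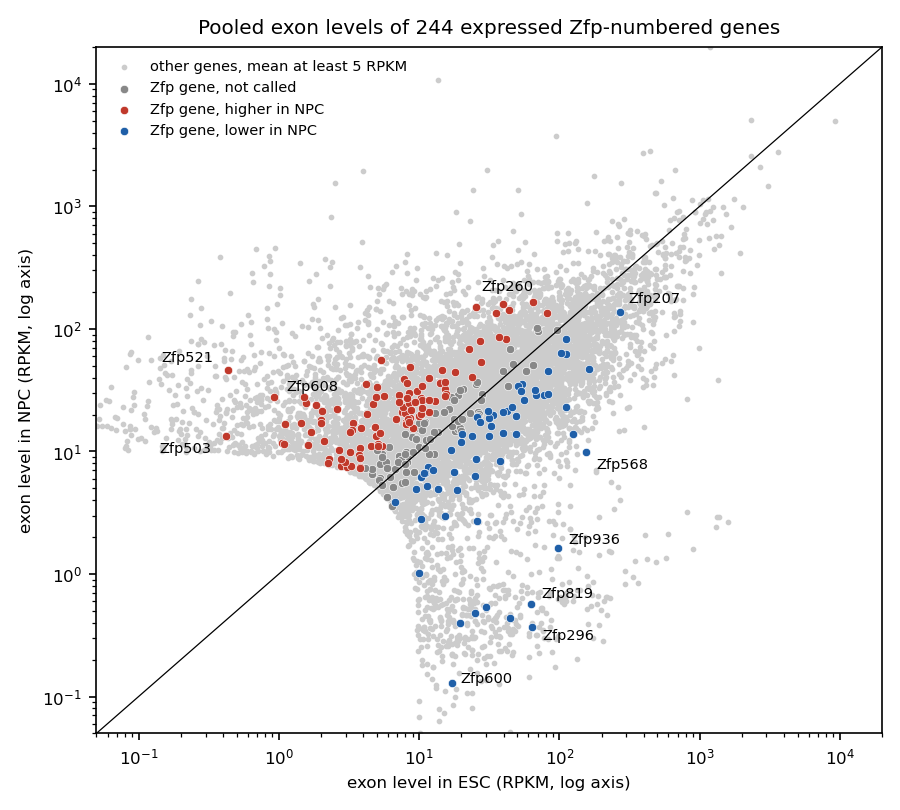
Pooled exon levels in ESC (x axis) and NPC (y axis) in RPKM on log axes, from the authors' deposited table; coloured points are the 244 Zfp genes by the authors' call, grey points the other genes above the same minimum, and the line marks equal levels. A group of 8 Zfp genes lies far below the line, from Zfp296 and Zfp600 to Zfp936, and Zfp521, Zfp503 and Zfp608 lie at the left edge of the family.

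The deepest falls were those of Zfp296, a gene tied to pluripotency, from 63.9 RPKM in ESC to 0.368 in NPC, and of Zfp600, from 17.1 to 0.128, in the authors' deposited table. Zfp819, known as an ESC factor that acts on retroelements, went from 62.5 to 0.567 RPKM. Zfp459 went from 44.4 to 0.439 and Zfp936 from 97.7 to 1.62. Zfp941, Zfp345 and Zfp951 followed, with deposited log2 fold changes of -5.98, -5.92 and -5.50. Of the transcript of Zfp600, 85.01% of the 50-base stretches also stand in another gene's transcripts, so its reads could be shared with a copy.

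The largest rise was that of Zfp521, a transcription factor that promotes neural fate, from 0.432 RPKM in ESC to 46.3 in NPC in the authors' deposited table, a log2 fold change of 6.60. Zfp503, a member of the NET family of zinc finger regulators, went from 0.417 to 13.3 RPKM, and Zfp608 from 0.923 to 27.9. Zfp629, Zfp9, Zfp658, Zfp768 and Zfp647 had log2 fold changes of 4.09, 3.83, 3.72, 3.48 and 3.43. By the mean of both cell types, the 6 highest members were Zfp207, Zfp146, Zfp644, Zfp281, Zfp260 and Zfp638. Zfp207, a protein of the spindle checkpoint, had 273 RPKM in ESC and 139 in NPC, Zfp146 had 65.3 and 167, and Zfp260 had 39.4 and 160.

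Introns, which mark unspliced transcripts, gave a readout with replicates. Introns were tested with limma on log2(RPKM + 1), over all 8811 genes whose intron levels averaged 1 RPKM or more, with Benjamini-Hochberg adjustment. The replicates were not alike: receptor genes of smell and taste, which neither cell type is known to use, had a median intron level of 0.0295 RPKM in ESC replicate 1, 0 in ESC replicate 2, 0.748 in NPC replicate 1 and 0.0829 in NPC replicate 2. The part of this background in the calls was not tested beyond the alternative fits. Of the members, 19 lay below that receptor level in NPC replicate 1, and 5 in NPC replicate 2. The labels say that the replicates are biological, not whether they came from separate cultures, so the p-values measure the spread between these samples.

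**Figure D2:**
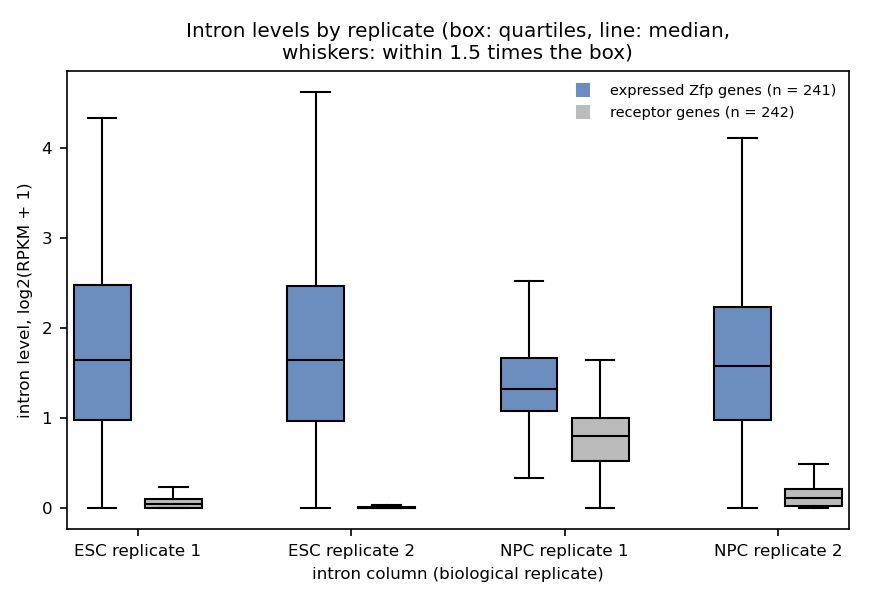
Intron levels on the log2(RPKM + 1) scale in the 4 biological replicates, for the 241 Zfp genes with an intron value (blue) and 242 receptor genes (grey); boxes span the quartiles, lines are medians and whiskers reach 1.5 times the box. The receptor genes lie highest in NPC replicate 1, with a median of 0.748 RPKM.

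Of 241 members with an intron value, 197 passed the filter, and limma called 21 higher and 51 lower in NPC. Among all tested genes 13.2% were called higher and 34.0% lower. The median log2 change of the tested members was -0.20, beside -0.43 over all tested genes, so a member at 0 stood above the bulk of the table. With the columns scaled to a common median, which moved the median of all genes to -0.05, 60 members were called higher and 32 lower, beside 25.6% and 26.4% of all genes. With the receptor level subtracted as well, an alternative added after seeing the data, 73 were higher and 39 lower, beside 29.6% and 33.0%. Counted by replicates alone, both NPC values lay above both ESC values in 43 tested members and below them in 85, beside 21.9% and 55.5% of all tested genes. The split between higher and lower therefore depends on the scaling, and the levels per replicate are given for each gene that follows.

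Zfp296 had intron levels of 12.6 and 14.9 RPKM in ESC and 0.0938 and 0.210 in NPC, which rest on 1 and 2 reads in NPC. The groups did not overlap, and the log2 change was -3.68 (SE 0.266, limma adjusted p = 2.04e-05). Zfp459 had 18.6 and 20.5 RPKM in ESC and 0.823 and 0.203 in NPC, a log2 change of -3.80 (SE 0.369, limma adjusted p = 3.72e-05). Its NPC replicate 1 was the higher of the pair, as in the receptor genes.

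Zfp819 introns stood at 5.58 and 6.08 RPKM in ESC and at 0.754 and 0.0443 in NPC. Both NPC values lay below both ESC values, with a log2 change of -2.33 (SE 0.252, limma adjusted p = 5.27e-05). Zfp936, a member of the same cluster on chromosome 7, had 11.3 and 12.9 RPKM in ESC and 1.07 and 0.237 in NPC. Zfp961 had 15.5 and 16.6 RPKM in ESC and 1.42 and 0.907 in NPC, a log2 change of -2.99 (SE 0.383, limma adjusted p = 0.000118).

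Zfp809, which binds the primer binding site of murine leukaemia viruses, had intron levels of 8.60 and 8.67 RPKM in ESC and 1.21 and 1.12 in NPC. Its replicates lay close together in both cell types, and the log2 change was -2.15 (SE 0.290, limma adjusted p = 0.000156). Zfp568, which represses a placental transcript of Igf2, had 6.51 and 6.65 RPKM in ESC and 1.40 and 2.01 in NPC. The log2 change was -1.495 (limma adjusted p = 0.0017), and the call was lost without ESC replicate 1 (adjusted p = 0.0634) and without ESC replicate 2 (adjusted p = 0.0728).

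Zfp608 rose in introns from 0.216 and 0.287 RPKM in ESC to 4.60 and 11.1 in NPC, the largest intron rise among the members called by limma, with a log2 change of 2.72 (SE 0.309, adjusted p = 6.84e-05). The NPC replicates differed more than 2-fold between themselves and both stood far above ESC. Zfp521 had 0.0859 and 0.0315 RPKM in ESC and 1.61 and 2.44 in NPC, on 2591 and 3523 intron reads in NPC. Its log2 change was 1.5002 (SE 0.193, limma adjusted p = 0.00012). Zfp503 had 0 reads in both ESC replicates and 20 and 21 reads in NPC, at 2.42 and 2.84 RPKM, and was called higher (limma adjusted p = 3.28e-05).

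Other rises were smaller on the log2 scale. Zfp362 had 0.449 and 0.225 RPKM in ESC and 1.39 and 2.69 in NPC, with a log2 change of 1.16 (SE 0.222, limma adjusted p = 0.00148). Zfp184 had 1.12 and 0.851 in ESC and 2.56 and 3.70 in NPC, with a log2 change of 1.05 (SE 0.210, limma adjusted p = 0.00196). Its call was lost at log2 changes of 0.87 with the receptor level subtracted (limma adjusted p = 0.129), 1.15 without ESC replicate 1 (0.063) and 0.95 without ESC replicate 2 (0.194), and it was called at 1.49 with the columns scaled as well (0.00178). Zfp27 had 0.432 and 0.749 in ESC and 1.63 and 2.15 in NPC, with a log2 change of 0.86 (SE 0.191, limma adjusted p = 0.00352). Its call was lost at 0.62 with the receptor level subtracted (limma adjusted p = 0.184) and 0.72 without ESC replicate 1 (0.151), and it was called at 1.09 with the columns scaled as well (0.0037). Zfp629, among the largest exon rises, had only 1, 1, 0 and 10 intron reads and was not called (limma adjusted p = 0.285).

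**Figure D3:**
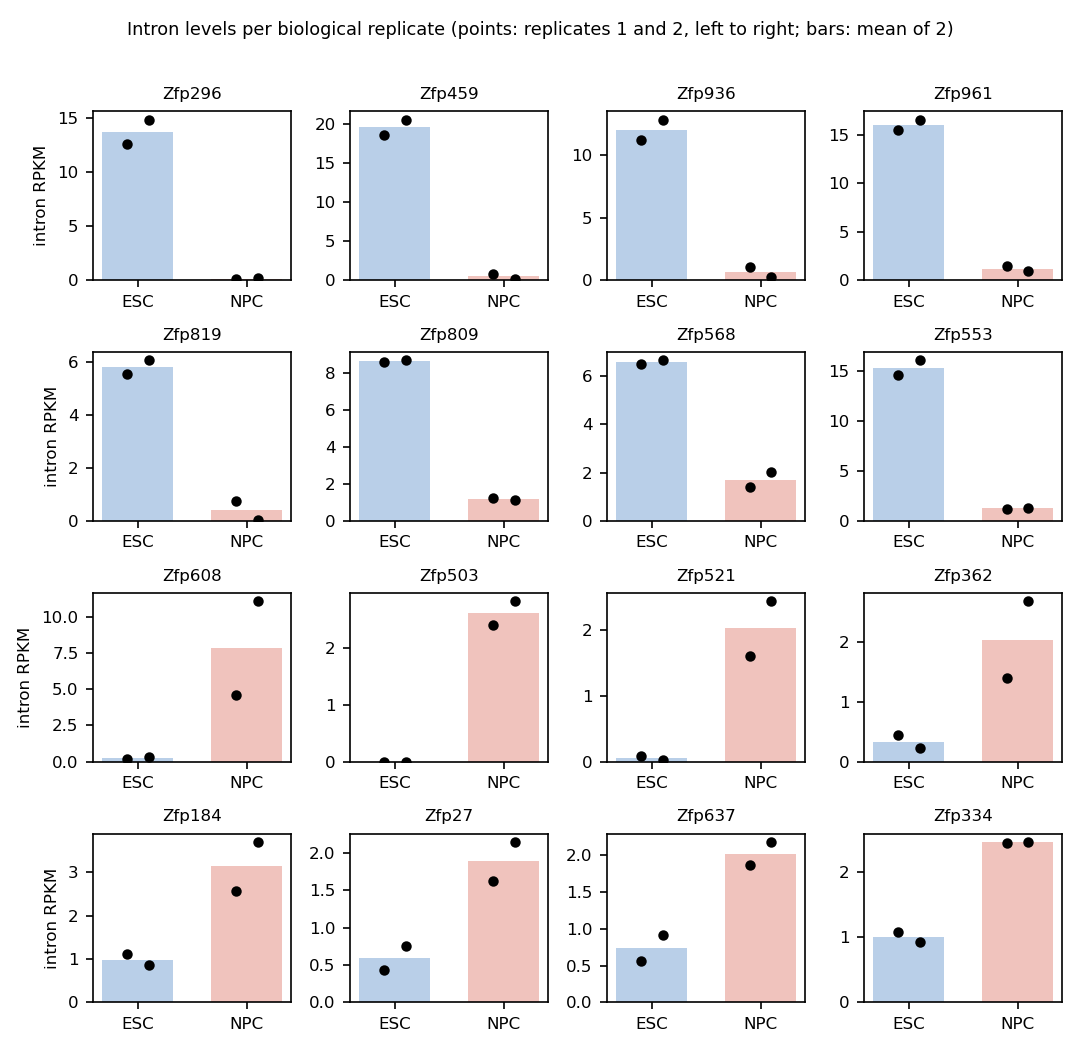
Intron RPKM of 16 members in each biological replicate (points) with the mean of the 2 replicates of a cell type (bars, axes start at 0, scales differ between panels). The upper 8 members are lower in both NPC replicates, such as Zfp809 with 8.60 and 8.67 RPKM in ESC and 1.21 and 1.12 in NPC, and the lower 8 are higher in both.

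Exon and intron changes ran together across the 197 members (Pearson r = 0.845, Spearman rho = 0.82). This is a correlation across genes, which are not independent replicates and which share their libraries. Of 82 tested members whose exons were higher, 19 also had introns called higher, beside 42.3% of all genes of that kind. Of 51 whose exons were lower, 35 also had introns called lower, beside 69.2%. Exons and introns were called in opposite directions in 0 members, beside 0.677% of all 7830 genes with the same exon minimum and an intron test. By replicates alone, both NPC intron values lay below both ESC values in 6 of the 82 members with higher exons, and above them in 39. In the 51 with lower exons they lay below in 43 and above in 0. Among all genes with an intron test, whatever their exon call, 55.5% lay below and 21.9% above. These shares are not matched to exon direction, and a matched share was not computed for this count by replicates. Zfp553 differed in size: its introns stood at 14.6 and 16.1 RPKM in ESC and at 1.19 and 1.33 in NPC (log2 change -2.86, SE 0.378, limma adjusted p = 0.000139), while its exons went from 53.0 to 30.9 RPKM in the authors' deposited table. Of 64 tested members whose exons were not called, 16 had introns called lower and 2, Zfp318 and Zfp931, higher. Among 2638 such genes of the whole table, 20.1% were lower and 1.33% higher.

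**Figure D4:**
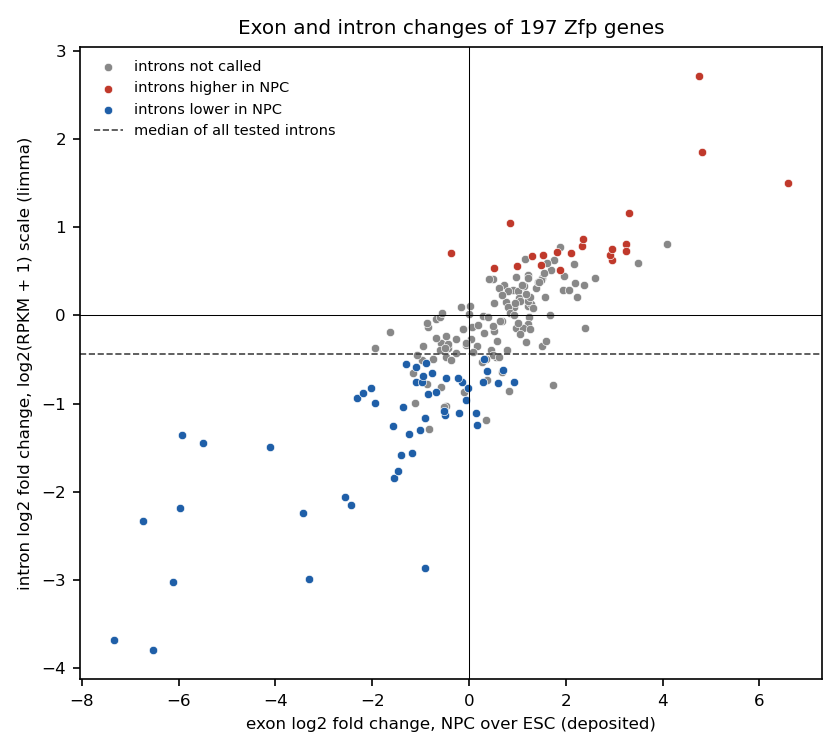
Deposited exon log2 fold change (x axis) against the intron log2 change from limma (y axis) of 197 Zfp genes, coloured by the intron call; the dashed line is the median of all tested introns, -0.43. Members lie along one diagonal (r = 0.845), and Zfp553 lies below it.

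Most clusters with several expressed members held calls in both directions. Zfp-numbered genes with start sites at most 1 Mb apart were chained, which gave 27 clusters of 3 or more genes with 146 members (coordinates in the mm9 build named by the submitters). Members in clusters were called higher 65 times and lower 30 times in the authors' deposited table, where 33.0% and 34.5% of all genes were, with a median log2 fold change of 0.52. Outside clusters the counts were 37 and 30, with a median of 0.05, and the difference was not tested. Of 21 clusters with 3 or more members, 14 held calls in both directions. Among 50 pairs of neighbouring members that were both called, 28 had the same direction and 22 opposite directions. Over all 119 neighbouring pairs the correlation of the log2 fold changes was -0.059. With 65 calls higher and 30 lower, unrelated members would also give pairs and groups with both directions. An expected share was not computed, so the counts of clusters and pairs are a description and show no trait of clusters.

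The largest cluster lies on chromosome 17 between 21145905 and 23723199 and has 17 members, 6 higher and 4 lower in the authors' deposited table, from Zfp943 at 2.19 to Zfp229 at -1.56. The second chromosome 17 cluster, between 32925232 and 33531323, has 10 members, with 7 higher and 1 lower. On chromosome 13, between 67162106 and 67914753, 12 members included 4 higher and 3 lower. Zfp459 stood apart there at -6.52, where the highest member, Zfp759, was at 1.30.

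Chromosome 7 holds 60 members. Between 30569809 and 30954746, 7 of 11 members were higher and 2 lower in the authors' deposited table, with Zfp14 at 2.96 and Zfp568 at -4.11. Between 50432958 and 50862539, Zfp658 at 3.72 stands among Zfp936 at -6.11 and Zfp819 at -6.73. On chromosome 9, Zfp809 and Zfp599 were lower, at -2.45 and -2.20, and Zfp810 was higher at 1.97. On chromosome 2, Zfp345 at -5.92 lies in a cluster where 2 of 4 members were higher. The cluster on chromosome 5 with Zfp113, Zfp157 and Zfp68 had 3 of 3 members higher.

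**Figure D5:**
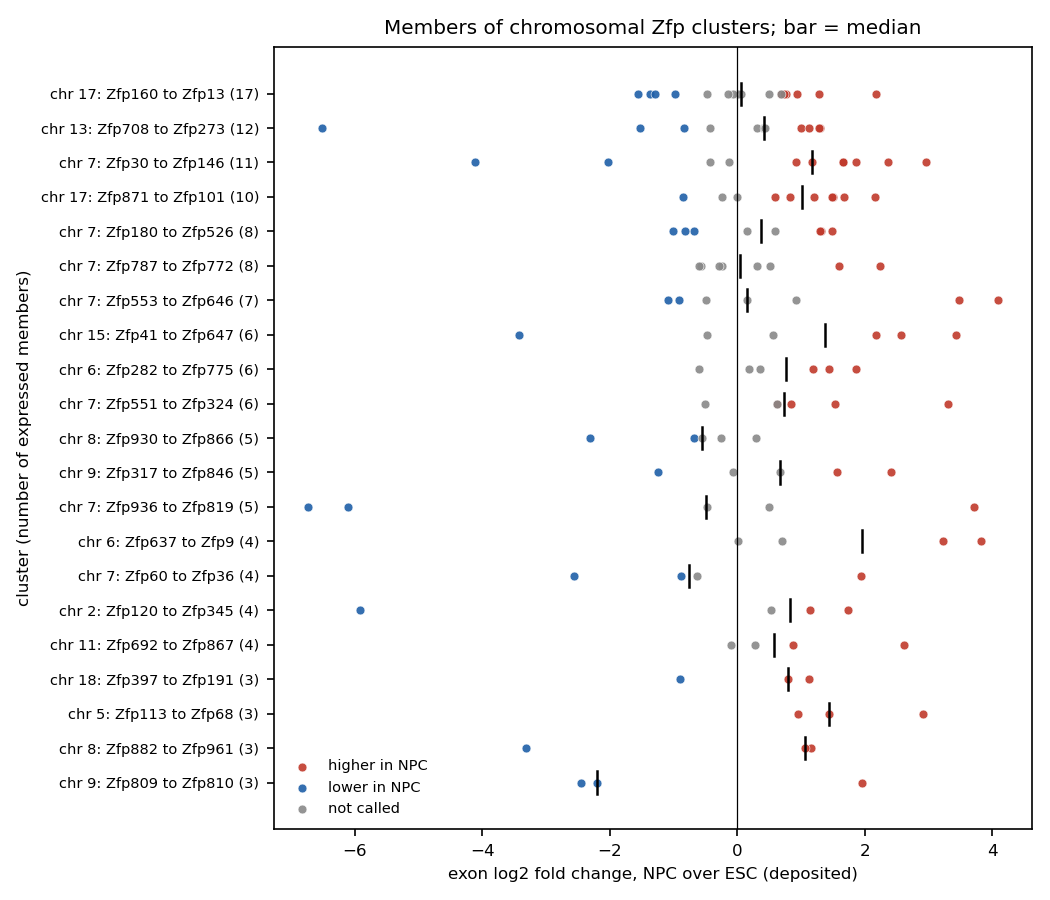
Deposited exon log2 fold change, NPC over ESC (x axis), of every member in the 21 clusters with 3 or more members (rows, named by chromosome and by first and last member, with the number of members); colours give the authors' call and bars the median. Zfp459 and Zfp345 each lie far to the left of the rest of their cluster, and Zfp819 and Zfp936 do so in a cluster that they share.

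By role, 1 list held members known from work on retroelements, imprints or pluripotency. It was chosen with results of these data known, as were the lists that follow, so its direction is no independent evidence. Of its 12 members, 0 were higher and 8 lower in the authors' deposited table, where 33.0% of all genes were higher and 34.5% lower, a background that serves for each role list, and the median was -2.88 on the log2 scale. Zfp281, a transcription factor of pluripotent cells, went from 163 to 47.0 RPKM, and its introns (2.41 and 1.42 RPKM in ESC, 1.60 and 0.893 in NPC) overlapped between the cell types. Its intron values rest on 3 and 2 reads in ESC and on 2 and 1 in NPC, too few to show a change or its absence. Zfp445, a keeper of imprints, stood at 69.4 RPKM (ESC) and 103 (NPC) and was not called, nor were Zfp706, Zfp708 and Zfp932. Of the 50-base stretches of Zfp708 and Zfp932, 100% and 55.5% also stand in transcripts of other genes.

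Among 8 members of the list on neural development, 2 were higher, Zfp521 and Zfp503, and 4 lower in the authors' deposited table, with a median log2 fold change of -0.31. Zfp423, a regulator in the cerebellum, was at 28.1 and 29.5 RPKM and was not called. Of 11 members with roles in RNA, translation and ubiquitin, 1 was higher and 7 lower, with a median of -0.88. Zfp598, the ubiquitin ligase that marks collided ribosomes, went from 39.5 to 14.2 RPKM. Zfp593, a ribosome biogenesis factor, went from 13.7 to 4.93. Of 15 members that act at promoters or on chromatin, 7 were higher and 4 lower, with a median of 0.38. Zfp143, an activator bound at many promoters, went from 56.3 to 26.1 RPKM, and Zfp148 from 14.1 to 36.5.

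Several partners of the KRAB box were lower in NPC. Of 20 corepressor genes in the authors' deposited table, 10 were lower and 3 higher, beside 34.5% and 33.0% of all genes, with a median log2 fold change of -0.64. Trim28, the scaffold that KRAB boxes bind, went from 716 to 105 RPKM in exons. Its introns were at 96.3 and 89.9 RPKM in ESC and at 6.45 and 17.8 in NPC, a log2 change of -2.99 (SE 0.851, limma adjusted p = 0.0135). Setdb1 went from 59.8 to 32.4 RPKM and Morc3 from 234 to 58.0, while Chd3, a remodeller, went from 5.21 to 29.3.

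Members with and without a KRAB match included calls in both directions. The match was a 10-residue pattern at the end of the A box, and it was found in 105 members. Of these, 47 were higher and 24 lower in the authors' deposited table (median log2 fold change 0.51), and of the 139 without it 55 were higher and 36 lower (median 0.30). Among all genes at the same exon minimum, 33.0% were higher and 34.5% lower. A broader pattern, added after the data were seen, was met by 133 members, 55 higher and 29 lower. Of the 12 members at least 8-fold lower, 8 held the first pattern and 10 the broader one, and of the 13 at least 8-fold higher, 3 and 4. Among all 244 members, 105 held the first pattern and 133 the broader one, and the difference was not tested. Most of these 12 and 13 members met the exon minimum through 1 cell type alone. The median number of fingers was 11 over all members, 12 with the match and 9 without.

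The octamer ATTTGCAT, the motif of POU factors such as Oct4, was searched on both strands in RefSeq promoters (GRCm38.p6, 250 bases before to 50 after the start). Promoters were found for 202 members. The octamer stood in 6 of them (2.97%), beside 1.754% of all 27025 promoters, a set not limited to expressed genes. Of these 6, 5 were called lower in the authors' deposited table and 0 higher, beside 34.5% and 33.0% of all genes at the same exon minimum. The 6 are shown with 10 bases on each side and the octamer in capitals, 5′ to 3′ on the gene's strand.
Zfp296, plus strand, chr7:19577166-19577193: ggagggcacaATTTGCATacaggtccct
Zfp345, minus strand, chr2:150485263-150485290: tgctactgaaATGCAAATcagctgatct
Zfp207, plus strand, chr11:80383103-80383130: cctcccttcaATTTGCATacgggatagc
Zfp263, plus strand, chr16:3743858-3743885: aaactttcctATGCAAATctgagccagg
Zfp428, plus strand, chr7:24506952-24506979: tcccgggaatATGCAAATcacatcctcc
Zfp120, minus strand, chr2:150136852-150136879: tggtactgaaATGCAAATttctacagac
Zfp120, the member not called, stood at 19.4 RPKM in ESC and 31.8 in NPC, and Zfp296 and Zfp345 are among the deepest falls. A match of letters is not a binding site. The ETS core CCGGAAG stood in 20.79% of members' promoters and in 9.121% of all, and the median number of CG pairs was 15 in members and 7 in all. Members were chosen by expression and the full set was not. The promoter comparisons therefore cannot tell a trait of the family from one of expressed genes.

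Markers of both cell types followed the labels in the authors' deposited table: 6 of 6 ESC markers were lower in NPC and 6 of 6 NPC markers higher. Feeder fibroblast markers were low, with 0 of 10 higher and 5 lower, and their summed level was 37.4 RPKM in ESC (each from 0.634 to 13.04) and 16.1 in NPC. Their part in the Zfp values was not tested. Of the neuron markers, Dcx was higher, Stmn2 and Tubb3 were lower, and Snap25 and Rbfox3 lay at or below 1.16 RPKM in both cell types.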

How the data were processed

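RNA from 8 libraries was analysed, 4 per cell type, as 2 biological replicates with 2 technical libraries each. The exon table holds RPKM pooled per cell type by the authors, with the log2 fold change and adjusted p-value the authors deposited. Per the submitters' processing notes, the build was mm9 and DESeq2 1.10.0 was used. The intron table holds RPKM that the authors combined per biological replicate; its unit was inferred from the values. Whole reads were recovered for 18393 of 18655 named intron genes (262 were at 0), within 0.001 reads, with 6210642 and 6997645 summed reads in the ESC replicates and 6115541 and 5533447 in those of NPC. What aligner and annotation were used, and whether strand or shared reads were handled, was not given in the sources used here.

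Exon calls were read as deposited at 0.05. Introns were tested with limma 3.58.1 in R 4.3.3 (mean-variance trend, pseudocount 1, mean of at least 1 RPKM). The pseudocount makes changes of low genes look smaller. In simulated data without the background of NPC replicate 1, all 50 rises of 4-fold and all 50 falls to a fold of 0.25 were called. Of 2-fold changes, 23 of 50 rises and 15 of 50 falls were called, so a missing call does not show an absent change. Of 8611 unchanged genes, 17 were called. The members, gene lists and motifs were chosen with earlier results of these data known. Named are the 8 highest and 8 lowest exon fold changes, the 6 highest means, up to 6 intron calls per direction, the genes nearest the minimum, cluster extremes and the role lists; other genes named (Zfp599, Zfp931, Zfp637, Zfp334, Zfp68) were chosen after their values were seen. Fingers and KRAB patterns were counted in translated GENCODE vM21 coding transcripts, in place of a RefSeq protein table. Clusters use the starts in the exon table.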

Additional observations from a re-analysis of the deposited data

How the results depend on the processing

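The exon counts (102 higher, 60 lower) moved by more than 1.5 times in 2 alternatives: with at least 2-fold, 39 were lower, and with at least 5 RPKM in each cell type, 60 were higher, with a median log2 fold change of 0.16 in place of 0.40. Intron calls moved more. The test as reported called 21 members higher, beside 1167 of all 8811 tested genes. With columns scaled to a common median 60 were higher, beside 2260 of all. The receptor level subtracted gave 4, beside 507, and limma without trend 12, beside 753. The receptor level subtracted with columns scaled gave 73, beside 2605, and voom on recovered reads 13, beside 973. The last 2 were added after seeing the data. With 51 lower as reported (2998 of all tested genes), 32 were lower with scaled columns (2322 of all). Leaving out 1 replicate gave 4 to 63 higher and 18 to 99 lower: 4 and 6 higher without ESC replicates 1 and 2, 63 without NPC replicate 1, 21 and 18 lower without ESC replicates 1 and 2, and 99 lower without NPC replicate 2. A lone sample is assumed to vary like the other group. The cause of these shifts was not tested. The replicate block gave 21 higher and 42 lower, beside 1145 and 2632 of all tested genes. Deviations of same-numbered replicates correlated at 0.019. The labels do not say whether same-numbered samples shared a culture or a day, and this correlation cannot decide it.

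Of 77 named members with an intron test, 40 were called, and none of those 40 changed direction in the 14 alternative fits. Calls were lost, though, in 20 of them without ESC replicate 1, 21 without ESC replicate 2 and 15 with the receptor level subtracted. Of the 37 not called, 29 were called in at least 1 alternative and 20 changed direction at least once. With scaled columns the log2 change of Zfp146 was 0.17, Zfp148 0.26, Zfp219 0.48, Zfp266 0.32, Zfp292 0.14, Zfp335 0.057, Zfp36 0.23, Zfp384 0.15, Zfp397 0.33, Zfp638 0.30, Zfp644 0.16 and Zfp956 0.31. With the receptor level subtracted, Zfp592 was at -0.17 and Zfp787 at -0.021. With both, Zfp146 was at 0.37, Zfp148 0.20, Zfp219 0.82, Zfp266 0.51, Zfp292 0.30, Zfp330 0.028, Zfp335 0.053, Zfp384 0.22, Zfp397 0.55, Zfp622 0.10, Zfp638 0.48, Zfp644 0.30 and Zfp956 0.14. With 1 replicate left out, values ranged from -0.76 to 0.16 for Zfp146, -0.24 to 0.52 for Zfp157, -0.59 to 0.52 for Zfp219, -0.64 to 0.36 for Zfp266, -0.67 to 0.053 for Zfp292, -0.10 to 0.65 for Zfp326, -0.74 to 0.053 for Zfp335, -0.38 to 0.21 for Zfp36, -0.60 to 0.056 for Zfp384, -0.38 to 0.10 for Zfp397, -0.10 to 0.92 for Zfp445, -0.57 to 2.18 for Zfp629, -0.57 to 0.25 for Zfp638, -0.76 to 0.19 for Zfp644, -0.25 to 0.67 for Zfp787 and -0.10 to 0.072 for Zfp956. Zfp629 without NPC replicate 2 was past the threshold in the other direction (limma adjusted p = 0.00263) and rests on 12 intron reads in all. Median intron reads per member were 140, 157, 107 and 119, which limits changes of low members.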
